A study of Mus musculus with 6 samples.

Results

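The genes of 5 related families were read from arrays of drug-sensitive and drug-resistant mouse mammary cells: the matrix metalloproteinases (MMP), the ADAM proteases, the ADAMTS proteases, the ADAMTS-like proteins (ADAMTSL) and the tissue inhibitors of metalloproteinases (TIMP). Members were all genes with a probe set of their own whose symbol is Mmp, Adam, Adamts, Adamtsl or Timp followed by a number, with or without a letter. This gave 83 of 19938 genes, of which 22 were MMP, 34 ADAM, 18 ADAMTS, 5 ADAMTSL and 4 TIMP genes. Adamts2 and Mmp15 bear such names and were not analysed here. NME cells are NMuMG cells, a mammary gland line of the mouse, transformed by overexpression of EGFR and sensitive to AG1478. AGR cells came from a single colony of NME cells that grew in 3D culture under 1 µM AG1478, an inhibitor of EGFR. They were expanded before RNA was taken. The study's methods state that resistant lines, once established, were kept without drug. AGR cells derive from NME cells, which overexpress EGFR. Whether AGR cells kept the overexpression was not examined here. RNA of either line was read on 3 arrays of the type Affymetrix Mouse Gene 1.0 ST. The AGR cells stand for 1 colony, and nothing says that the arrays come from separate cultures, so p-values reflect the spread among these arrays alone, which may be technical.

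MMPs, most ADAMs and ADAMTSs have a zinc-dependent catalytic domain that a propeptide holds inactive. MMPs cut collagens, laminins and other matrix proteins. ADAMs sit in the plasma membrane and release the outer parts of other membrane proteins, among them the ligands of EGFR. ADAMTSs are secreted and act on proteoglycans, procollagens and microfibrils, ADAMTS-like proteins resemble them without a protease domain, and TIMPs block the active site. In the mammary gland these enzymes take part in branching and in the remodelling that follows weaning.

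The values were log2 intensities. Medians of the arrays lay between 190.4 and 200.8 on the linear scale, and log2 intensities correlated at 0.995 to 0.997 within a cell line and at 0.986 to 0.988 between the cell lines, across probe sets, which are not independent. Of 12 markers of mammary epithelium, Krt8 (14.23 in NME cells) and Cdh1 (13.54) were high, while Epcam had means of 6.58 for NME and 6.51 for AGR, less than 7.61, the median over all probe sets, hereafter the midpoint. Krt5, Krt14 and Cldn7 also had means below the midpoint in both cell lines. Of the 12 markers 2 were lower in AGR cells, Krt19 with a log2 FC of -1.04 and Cdh1 with one of -0.60. This was 16.7% of them, beside 11.6% of all genes by the same test. No detection calls come with these arrays, so dim values may lie near background. The midpoint marks dim values and is not a measured limit of detection. Of 29 markers of fibroblasts, immune cells, endothelium and adipocytes, 2 were higher (Pdgfra and Csf1r) and 2 lower (Cidec and Cd14) in AGR cells. Together this was 13.8% of the 29, beside 24.2% of all genes by the same test. The part of these markers in the results was not tested.

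Most members did not pass the test, and a few changed strongly. In AGR cells 12 members were higher and 5 lower by limma (adjusted p under 0.05, over all 19938 genes), where 12.6% of all genes were higher and 11.6% were lower. The share of members called was 20.5%, against 24.2% of all genes. A fold change (FC) above 2 was reached by 5 members, or 6.02%, where 3.00% of all genes passed this threshold. Adamts6, Adam12 and Timp1 were higher (1.50% of all genes), and Mmp13 and Mmp28 were lower (1.50% of all genes). The median log2 FC of the members was -0.01, and that of all genes was -0.02. For 21 members the AGR arrays did not overlap the NME arrays, while this held for 36.4% of all genes. Without NME replicate 3 the members that were higher numbered 7, and without NME replicate 1, 2 or 3 those that were lower numbered 3 in each case.

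**Figure D1:**
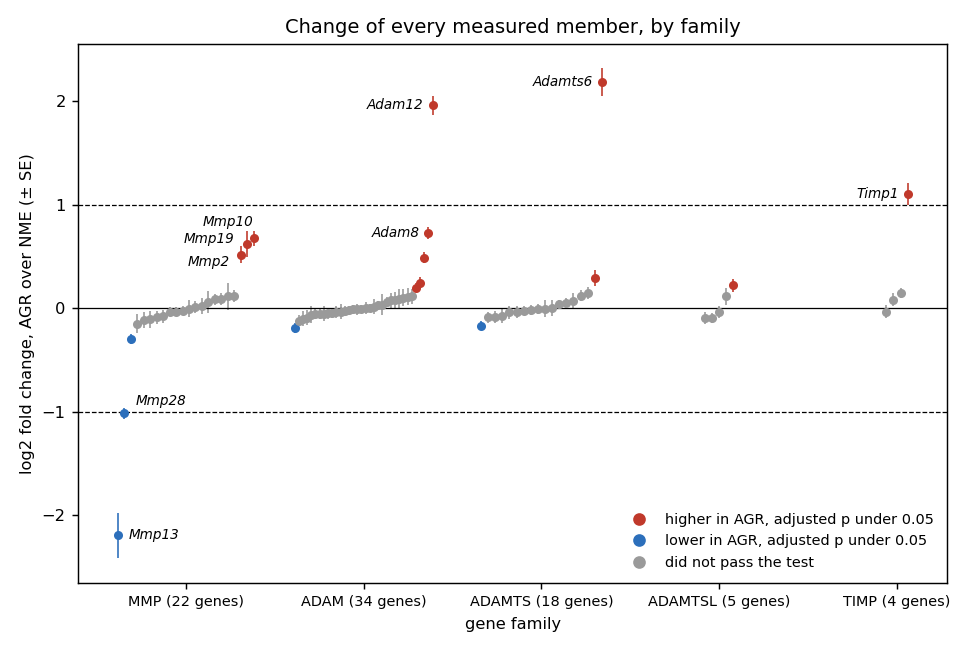
Log2 fold change, AGR over NME, (y axis, points with SE) of each of the 83 members, grouped by family (x axis) and sorted within it. Dashed lines mark a FC of 2, which Adamts6 (2.19), Adam12 (1.96), Timp1 (1.10), Mmp28 (-1.01) and Mmp13 (-2.19) passed, while gray points did not pass the test.

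Of the 22 MMP genes, 10 lie side by side on chromosome 9. Many promoters of this cluster hold the letters TGANTCA. This pattern is wider than the site that AP-1 transcription factors bind, TGACTCA or TGAGTCA. AP-1 is the best known inducer of interstitial collagenase and stromelysin genes. In the RefSeq promoter table (build GRCm38.p6, from 250 bases before to 50 bases after each start) 8 of these 10 genes held the letters. Of 27025 genes with an entry 8.97% held them. Among the 52 members with an entry 13 did, a number that includes the 8 of the cluster. By call, they were held by 1 of 7 higher members, 1 of 3 lower ones and 11 of 42 that did not pass. The pattern reads the same way on both strands, N standing for any base. The counts thus include genes with TGAATCA before the start, namely Mmp20 of the cluster, Adam20 and Adam25. The 130 bases before the start are given for Mmp13 and Mmp10, which changed, and for Mmp3 and Mmp1a, which lie between them and did not pass the test. All 4 are on the plus strand, and capitals mark the AP-1 letters.
Mmp13, chr9:7272384-7272513: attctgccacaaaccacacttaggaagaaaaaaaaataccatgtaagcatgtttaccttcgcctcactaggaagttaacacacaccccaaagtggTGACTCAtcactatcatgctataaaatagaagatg
Mmp10, chr9:7502212-7502341: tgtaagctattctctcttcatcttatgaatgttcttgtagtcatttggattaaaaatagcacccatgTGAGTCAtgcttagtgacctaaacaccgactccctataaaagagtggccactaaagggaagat
Mmp3, chr9:7445692-7445821: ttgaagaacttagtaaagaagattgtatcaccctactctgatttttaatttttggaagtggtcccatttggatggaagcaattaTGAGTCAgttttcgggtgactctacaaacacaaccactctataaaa
Mmp1a, chr9:7464011-7464140: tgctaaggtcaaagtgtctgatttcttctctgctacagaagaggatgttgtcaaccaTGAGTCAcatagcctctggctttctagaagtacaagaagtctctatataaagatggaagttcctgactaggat
The first of these letters lies 35 bases before the start in Mmp13, 63 in Mmp10, 46 in Mmp3 and 73 in Mmp1a. Mmp13 holds TGACTCA, and the other three hold TGAGTCA. A match is a description of the sequence, and binding was not measured here.

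Mmp13, a collagenase that cuts fibrillar collagens and, in rodents, takes the place of human MMP1, had the largest decrease of all members. The NME arrays read 12.24, 12.57 and 12.06, and the AGR arrays read 9.82, 10.57 and 9.91. Every AGR array was thus far below every NME array, although AGR replicate 2 stayed above the other AGR arrays. The log2 FC was -2.19 (SE 0.22, limma adjusted p = 0.000605), a 4.57-fold decrease. Over the alternatives it lay between -2.43 and -2.05.

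Mmp10, or stromelysin-2, went the other way although it belongs to the same cluster. Its NME arrays read 7.01, 7.01 and 6.87, and its AGR arrays read 7.53, 7.61 and 7.78. The groups did not overlap, and the log2 FC was 0.67 (SE 0.08, limma adjusted p = 0.00102), but all NME arrays lay below the midpoint. The other 8 genes of the cluster (Mmp12, Mmp1b, Mmp3, Mmp1a, Mmp8, Mmp27, Mmp20 and Mmp7) did not pass the test. Their log2 FCs lay between -0.15 for Mmp3 and 0.12 for Mmp7, and each of the 8 lay below the midpoint in both cell lines. Both copies of the mouse interstitial collagenase, Mmp1a (5.11 in NME cells and 5.07 in AGR cells) and Mmp1b (4.50 and 4.59), were among them, and signal of such similar copies can be shared by their probes. Next to the cluster, Dync2h1 (log2 FC 0.29) and Tmem123 (0.49) were higher, and both were named after their values were seen. Dcun1d5, the protein-coding gene beside Mmp13, had a log2 FC of 0.14 and did not pass (limma adjusted p = 0.324).

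**Figure D2:**
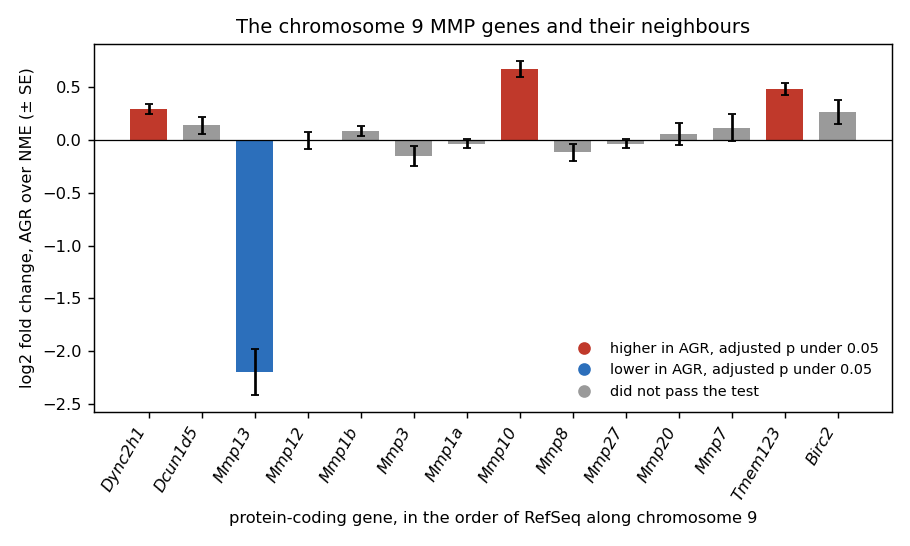
Log2 fold change, AGR over NME, (y axis, bars with SE) of the 10 MMP genes of chromosome 9 and of the nearest 2 protein-coding genes on either side, in the order of the RefSeq table (x axis). Mmp13 fell by 2.19 and Mmp10 rose by 0.67 on the log2 scale, while the 8 other MMP genes of the cluster, in gray, did not pass the test.

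Outside the cluster, Mmp28 was the MMP with the largest change. Mmp28 encodes epilysin, a secreted MMP of epithelia. Its intensities were 9.41, 9.29 and 9.34 in the NME arrays and 8.34, 8.38 and 8.28 in the AGR arrays, so that the arrays of either cell line lay close together and apart from the other. This gave a log2 FC of -1.01 (SE 0.05, limma adjusted p = 3.28e-05), a FC of 2.02. As it sits at the threshold, the FC of Mmp28 fell below 2 with the arrays centred on their medians (log2 FC -0.99), with an offset of 16 (-0.98), without NME replicate 1 (-0.98) and without AGR replicate 3 (-0.99).

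Mmp2 and Mmp9 encode the gelatinases, which degrade denatured collagen and collagen IV. Mmp2 read 7.93, 8.19 and 8.17 in the NME arrays and 8.61, 8.70 and 8.53 in the AGR arrays. All AGR arrays were above all NME arrays, with a log2 FC of 0.52 (SE 0.08, limma adjusted p = 0.00457). Mmp9 lay below the midpoint in both cell lines, with means of 7.21 (SD 0.12, n = 3) for the NME arrays and 7.14 (SD 0.01, n = 3) for the AGR arrays, and did not pass.

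Among the remaining MMPs, Mmp19, which is known to cut basement membrane proteins, rose with a log2 FC of 0.62 (SE 0.13, limma adjusted p = 0.0116). Its NME arrays, between 7.08 and 7.29, were below the midpoint, its AGR arrays lay between 7.54 and 8.03, and the call was lost without NME replicate 2, NME replicate 3 or AGR replicate 3 and with the test of the study's methods after adjustment (adjusted p between 0.00639 and 0.0782 over the alternatives). Mmp11, or stromelysin-3, fell slightly, from 9.39, 9.37 and 9.42 in the NME arrays to 9.13, 9.03 and 9.12 in the AGR arrays (limma adjusted p = 0.00423). None of the 5 membrane-type MMPs passed, and at an unadjusted p under 0.05 the number was 0 as well, both by limma and by the test of the study's methods. Mmp14, whose product MT1-MMP activates the proform of MMP-2 at the cell surface, read 10.75, 10.57 and 10.73 in the NME arrays and 10.79, 10.83 and 10.79 in the AGR arrays. The AGR arrays were above the NME arrays by a small margin, with a log2 FC of 0.12 (SE 0.06, limma adjusted p = 0.222). Mmp16, Mmp17, Mmp24 and Mmp25 had log2 FCs between -0.09 and 0.09. For Mmp24 the cell lines did not overlap either, which held for 36.4% of all genes.

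Of the 9 broadly expressed ADAM proteases, 4 rose (12.6% of all genes) and 0 fell (11.6% of all genes) by limma, and 0 fell at an unadjusted p under 0.05 or by the test of the study's methods. In 8 of the 9 the mean was above the midpoint, where 37.3% of all genes were called in either direction. Adam12, which sheds HB-EGF and cleaves IGF-binding proteins, changed most. The NME arrays gave 7.98, 8.01 and 7.79 for it, close to the midpoint, and the AGR arrays gave 9.73, 10.05 and 9.88. The separation was complete and wide, at a log2 FC of 1.96 (SE 0.095, limma adjusted p = 2.64e-05), a 3.89-fold increase. It ranged from 1.88 to 2.04 over the alternatives.

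Adam8, a protease best known from leukocytes and also found in carcinomas, rose from 9.02, 9.02 and 8.92 in the NME arrays to 9.65, 9.79 and 9.69 in the AGR arrays. Again the groups did not overlap, and the log2 FC was 0.73 (SE 0.06, limma adjusted p = 0.000172). Adam15, which carries an integrin-binding RGD motif in humans, read 10.52, 10.42 and 10.56 in the NME arrays and 11.03, 10.93 and 11.01 in the AGR arrays. This was a smaller increase without overlap, with a log2 FC of 0.49 (limma adjusted p = 0.00105). Adam9, a widely expressed sheddase, was bright in all arrays, at 12.59, 12.59 and 12.57 in the NME arrays and 12.74, 12.76 and 12.84 in the AGR arrays. Its log2 FC of 0.20 passed (limma adjusted p = 0.0175), but the call was lost without NME replicate 1, NME replicate 3 or AGR replicate 3.

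The main sheddases of EGFR ligands and Notch did not pass the test. Adam10, which releases EGF and betacellulin and cuts Notch receptors, read 11.29, 11.12 and 11.21 in the NME arrays and 11.16, 10.99 and 11.21 in the AGR arrays. Adam17, also called TACE, which releases TGF-α, amphiregulin and TNF, read 10.23, 10.08 and 10.21 in the NME arrays and 10.28, 10.18 and 10.41 in the AGR arrays. The cell lines overlapped for both genes, with log2 FCs of -0.09 (SE 0.07, limma adjusted p = 0.483) for Adam10 and 0.12 (SE 0.08, limma adjusted p = 0.356) for Adam17. Adam19, Adam28 and Adam33 had log2 FCs between -0.12 and 0.00 and did not pass.

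The other ADAM genes are known mainly from the testis, where several act in the fusion or the migration of sperm, or from the nervous system. Of 22 genes of the testis group, 21 lay below the midpoint in both cell lines, and their log2 FCs lay between -0.19 and 0.11. The exception was Adam34l, with means of 8.70 for NME and 8.80 for AGR. Adam5 fell with a log2 FC of -0.19, but with means of 5.43 for NME and 5.24 for AGR it lay far below the midpoint, and the call was lost under 7 alternatives. Of 3 catalytically inactive ADAMs of the nervous system, Adam23 rose from 6.89 to 7.14, a log2 FC of 0.25, below the midpoint in both cell lines and lost without NME replicate 1 or 3. Adam11 and Adam22 did not pass.

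Adamts6 had the largest increase of all members. Its product has been linked to fibrillin microfibrils and to syndecan-4 at focal adhesions. The NME arrays read 7.74, 7.63 and 7.65, at the midpoint, and the AGR arrays read 9.64, 10.17 and 9.77. No AGR array came near the NME range, and the log2 FC of 2.19 (SE 0.13, limma adjusted p = 6.72e-05) corresponds to a 4.55-fold increase. It lay between 2.03 and 2.30 over the alternatives.

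Adamts10, the gene closest to Adamts6 in its protein family, had a log2 FC of 0.04. Of the 7 aggrecanases, which cut aggrecan and versican, Adamts9 rose and Adamts15 fell at an adjusted p under 0.05, both by little. This was 28.6% of them, beside 24.2% of all genes. Adamts9 was read by 6 probe sets. The brightest gave 8.99, 9.09 and 9.14 in the NME arrays and 9.45, 9.23 and 9.43 in the AGR arrays, hence a log2 FC of 0.30 (SE 0.08, limma adjusted p = 0.0304), and 4 of the 6 passed, with log2 FCs between 0.07 and 0.40 over all 6. The call on the brightest was lost without NME replicate 1, 2 or 3, without AGR replicate 1 or 3, and with the adjusted test of the study's methods. Adamts15 lay below the midpoint, with means of 7.19 for NME and 7.03 for AGR, and its call was lost under 6 alternatives. Adamts1, Adamts4, Adamts5, Adamts8 and Adamts20 had log2 FCs between -0.07 and 0.07. The procollagen N-propeptidase genes Adamts3 and Adamts14 did not pass, nor did any of the 16 probe sets of Adamts3 or the 5 of Adamts17. Of the 5 ADAMTS-like genes, Adamtsl4, whose product binds fibrillin-1 and is needed for the lens zonule, rose from 8.66 to 8.88. This log2 FC of 0.22 (SE 0.06, limma adjusted p = 0.0489) was at the threshold, and the call was lost without any 1 of the 6 arrays, with trend and robust settings in eBayes and with the adjusted test of the study's methods.

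Of the 4 TIMPs, which inhibit MMPs at a ratio of one inhibitor to one enzyme, Timp1 rose. It read 10.29, 10.38 and 10.38 in the NME arrays and 11.25, 11.68 and 11.43 in the AGR arrays. The AGR arrays spread more than the NME arrays and lay entirely above them, with a log2 FC of 1.10 (SE 0.11, limma adjusted p = 0.000517), a 2.15-fold increase. Without AGR replicate 2 the log2 FC was 0.99 and its FC no longer exceeded 2. Timp2, which also helps MT1-MMP to activate pro-MMP-2, read 12.63, 12.65 and 12.65 in the NME arrays and 12.75, 12.87 and 12.75 in the AGR arrays. These ranges did not overlap, but the log2 FC of 0.15 (SE 0.05, limma adjusted p = 0.0773) did not pass. It passed with quantile normalization (adjusted p = 0.0307) and with trend and robust settings in eBayes (adjusted p = 0.0393), over a range of 0.0307 to 0.184 among all adjusted alternatives. Timp3, the TIMP that binds to the matrix and inhibits ADAM17, had means of 6.44 for NME and 6.41 for AGR, and Timp4 of 6.31 and 6.39. Neither passed the test, and both were below the midpoint in both cell lines.

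**Figure D3:**
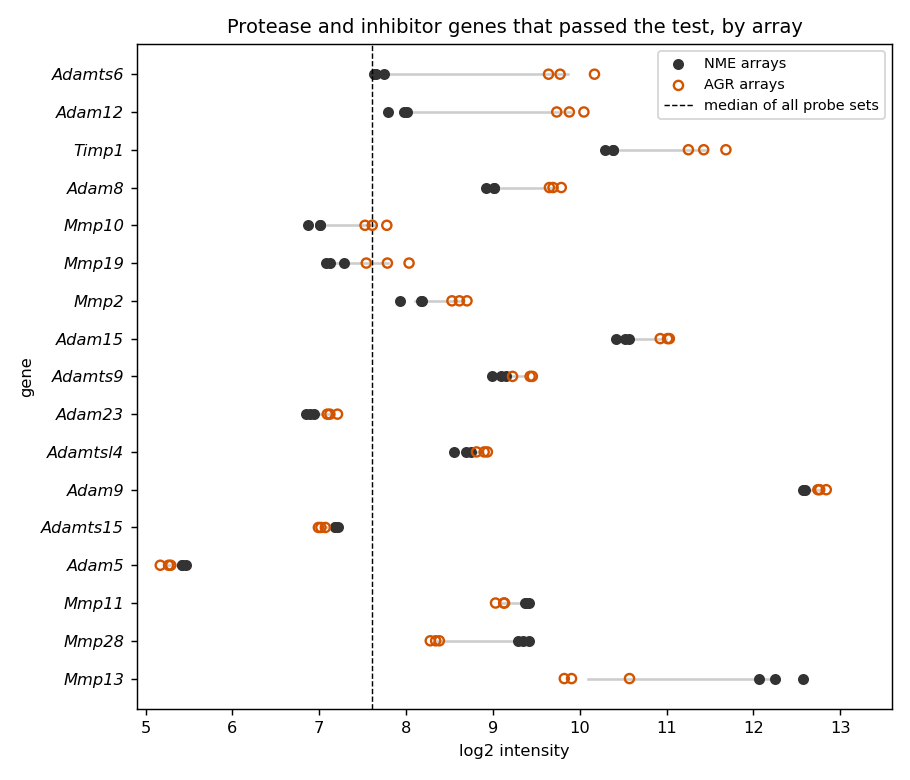
Log2 intensity (x axis) of the 17 members that passed the test (y axis, sorted by change) on each of the 3 NME arrays (black) and 3 AGR arrays (open orange), with a gray line joining the means and a dashed line at the midpoint, 7.61. For all 17 the cell lines did not overlap, and Adam5, Adam23 and Adamts15 lay below the dashed line on every array.

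The calls were unevenly spread over the range of intensities. Of the 83 members, 50 lay below the midpoint in both cell lines. The 30 members whose mean over the 6 arrays was above the midpoint held 12 calls, or 40.0%, beside 37.3% of all genes with such a mean. The 53 members with a lower mean held 5 calls (Adam5, Adam23, Adamts15, Mmp10 and Mmp19), beside 469 of 8264 among all genes with such a mean. For the 66 members that did not pass, log2 FCs lay between -0.15 and 0.15. Intensities of different probe sets cannot be set against each other as amounts of RNA.

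**Figure D4:**
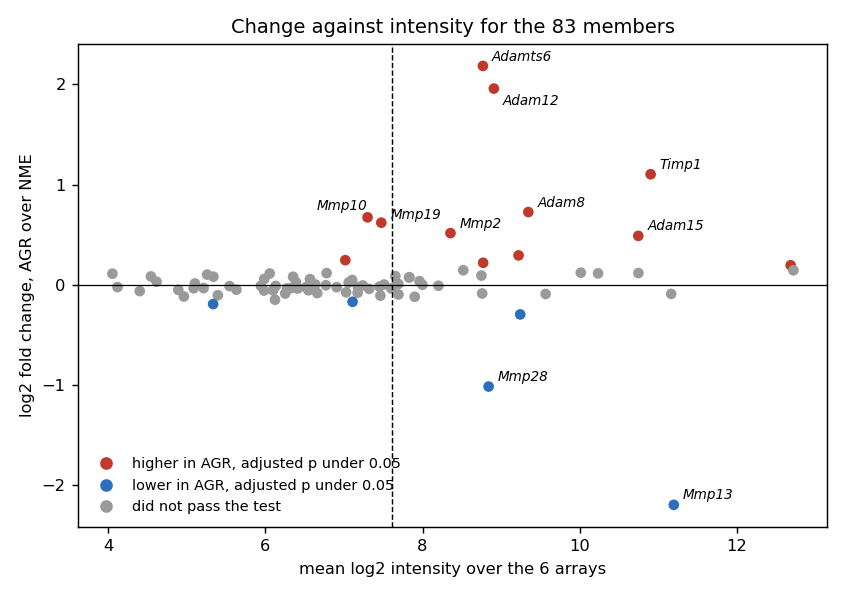
Log2 fold change, AGR over NME, (y axis) against the mean log2 intensity over the 6 arrays (x axis) for each of the 83 members, with a dashed line at the midpoint, 7.61. Red points were higher and blue ones lower, and the 5 members with a FC above 2 all have a mean to the right of the dashed line.

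Regulators and partners of the metalloproteinases were examined from a list of 39 genes, of which 37 were measured. In AGR cells 7 rose and 8 fell, and the list had a median log2 FC of -0.03 (all genes -0.02). The share called was 40.5%, beside 24.2% of all genes and 37.3% of genes with a mean above the midpoint, to which 25 of the 37 belong. Pcolce2, which encodes an enhancer of procollagen C-proteinase, rose from 7.67, 7.84 and 7.75 in the NME arrays to 9.82, 10.00 and 9.70 in the AGR arrays. It did so without overlap, at a log2 FC of 2.09 (limma adjusted p = 1.36e-05). Pcolce, its relative, fell by 0.63 on the log2 scale, and Bmp1, which encodes the proteinase both enhance, rose by 0.50, Pcolce and Bmp1 being named after their values were seen. Plau, the gene of urokinase, the protease that makes plasmin, which activates several pro-MMPs, had a log2 FC of 1.77 against NME arrays that lay below the midpoint (mean 7.35), and Plaur, the gene of its receptor, also named after its values were seen, did not pass (-0.13). Reck, a membrane-anchored inhibitor of MMP-2, MMP-9 and MT1-MMP, passed the test without overlap, with a log2 FC of 0.55. Its means of 6.77 for NME and 7.32 for AGR both lay below the midpoint, where signal may be near background. Lrp1, the endocytic receptor that clears MMP-13, several ADAMTSs and complexes of TIMPs, fell by 1.23 on the log2 scale, from 10.76, 10.85 and 10.98 in the NME arrays to 9.69, 9.49 and 9.72 in the AGR arrays. Among proprotein convertases, which remove propeptides, Pcsk6 had a log2 FC of -1.63, from 11.90, 12.13 and 11.91 in the NME arrays to 10.23, 10.62 and 10.19 in the AGR arrays, while Furin, named after its values were seen, had one of 0.16.

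Partners that direct ADAM10 and ADAM17 to their substrates were on the same list. TspanC8 tetraspanins bind ADAM10, carry it to the cell surface and steer it to different substrates. Of the 6 members of this group, 3 were lower (11.6% of all genes) and 1 was higher (12.6% of all genes) in AGR cells. All 6 had a mean above the midpoint, where 37.3% of all genes were called in either direction. The grouping was made with the values known. Tspan15, whose product favours cleavage of N-cadherin by ADAM10, read 11.64, 11.53 and 11.61 in the NME arrays and 10.12, 9.67 and 10.14 in the AGR arrays. The AGR arrays were lower throughout, with a log2 FC of -1.62 (SE 0.13, limma adjusted p = 0.000206), while Adam10 itself did not pass. Tspan33 had a log2 FC of -0.68, Tspan14 of -0.52 and Tspan17 of 0.19, Tspan14 and Tspan17 being named after their values were seen. Frmd8, which stabilises the iRhom and ADAM17 complex, rose with a log2 FC of 0.65 (limma adjusted p = 0.00679), a call that was lost with the test of the study's methods after adjustment (adjusted p = 0.0566). The genes of the iRhoms themselves, Rhbdf1 and Rhbdf2, had log2 FCs of -0.14 and -0.06 and did not pass, and they were named after their values were seen.

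Of 41 measured genes for membrane proteins that ADAMs shed, 8 rose and 12 fell in AGR cells, and the list had a median log2 FC of -0.06. This is 48.8% of the list, beside 24.2% of all genes and 37.3% of genes with a mean above the midpoint, to which 33 of the 41 belong. Of the 7 measured ErbB ligands on this list, Btc and Ereg fell and Hbegf, named after its values were seen, rose. Btc, the gene of betacellulin, read 11.34, 11.58 and 11.18 in the NME arrays and 9.30, 10.28 and 9.62 in the AGR arrays. All 3 AGR arrays were lower, AGR replicate 2 least, with a log2 FC of -1.64 (SE 0.24, limma adjusted p = 0.0032). For Ereg, the gene of epiregulin, the AGR arrays were far apart, at 10.40, 11.88 and 11.04, against 12.29, 12.34 and 12.30 in the NME arrays, and its call was lost when any 1 NME array, AGR replicate 1 or AGR replicate 3 was left out, and with the adjusted test of the study's methods. Hbegf had a log2 FC of 0.66, while Tgfa, Nrg1, Egf and Epgn, also named after their values were seen, did not pass.

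Cadherin genes on this list went in opposite directions. Cdh2, which encodes N-cadherin, had a log2 FC of 1.60, and Cdh1, which encodes E-cadherin and was named after its values were seen, had one of -0.60. Vcam1, a substrate of ADAM17, had a log2 FC of -1.83, from 10.96, 10.62 and 10.80 in the NME arrays to 9.06, 8.49 and 9.34 in the AGR arrays. The chemokine gene Cx3cl1 fell by 1.16 on the log2 scale, whereas Nectin1 (log2 FC 1.46), Csf1 (1.14) and the ephrin gene Efnb1 (0.74) rose.

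Matrix proteins that MMPs and ADAMTSs cut formed the third list. Of its 34 measured genes, 9 rose (12.6% of all genes) and 0 fell (11.6% of all genes) by limma after adjustment, and the list had a median log2 FC of 0.00. The share called in either direction was 26.5%, beside 24.2% of all genes. Of its 23 genes with a mean above the midpoint 39.1% were called, beside 37.3% of all genes with such a mean. At an unadjusted p under 0.05 limma had 2 lower genes, Nid2 and Lama5, named after their values were seen, and the test of the study's methods had 0 after adjustment and 2 before it. The log2 FC was 3.40 for Thbs1, which encodes thrombospondin-1, 2.51 for Fbln2, which encodes fibulin-2, 1.44 for Fn1, which encodes fibronectin, and 1.21 for Nid1, which encodes nidogen-1. The NME mean of Nid1 (7.55) lay below the midpoint. Col4a1 and Col4a2, the basement membrane collagen genes, had log2 FCs of 0.67 and 0.86 and were named after their values were seen. Fibrillar collagen genes, the substrates of Mmp13, did not pass: the log2 FCs were 0.01 for Col1a1, -0.07 for Col1a2 and -0.01 for Col3a1, also named after their values were seen. Vcan and Acan, which encode the proteoglycans cut by aggrecanases, had log2 FCs of 0.16 and -0.05, did not pass, and were likewise named after their values were seen.

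**Figure D5:**
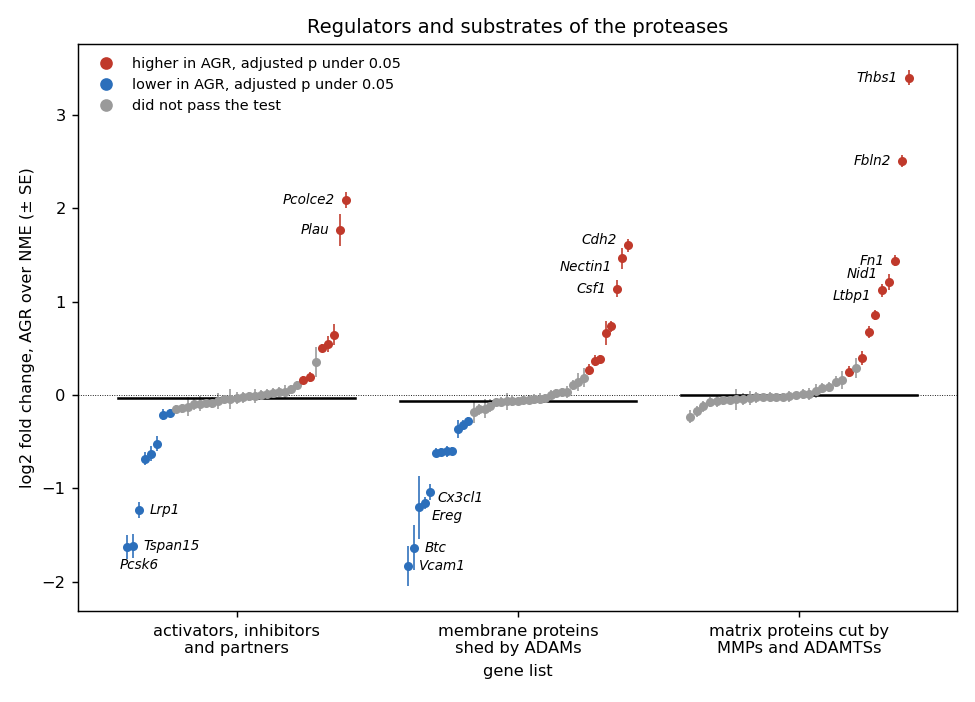
Log2 fold change, AGR over NME, (y axis, points with SE) of each measured gene of the lists of regulators, of shed membrane proteins and of matrix substrates (x axis), sorted within each list, with a black line at the median. Red points were higher and blue ones lower, and the list of matrix substrates holds 9 red and 0 blue points, with Thbs1 at 3.40.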

How the data were processed

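RNA of NME and AGR cells had been hybridized to Affymetrix arrays (Mouse Gene 1.0 ST, 3 a cell line). What the authors deposited are processed intensities, not on a log scale. The submitters' notes name MAS5 without version or settings, and as this array type has no mismatch probes, which MAS5 needs, the normalization is unknown. Log2 was taken without further normalization. Of 35557 probe sets, 21789 carried 1 symbol in the platform table, and the brightest stood for a gene (4 members had several probe sets). Cell lines were compared by lmFit and eBayes of limma 3.58.1 (R 4.3.3), adjusting p-values over 19938 genes after Benjamini and Hochberg, at an adjusted p under 0.05 and, where stated, a FC above 2. The fit was tested on simulated data. RefSeq (GRCm38.p6) gave gene order and promoters, and all 83 member symbols matched it.

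The members and lists were chosen with earlier results of these data known. Named were all members that passed, the TIMPs, Mmp2, Mmp9, Mmp14, Adam10, Adam17, the 5 brightest members of each cell line, and up to 4 genes a list in each direction. Other members that did not pass were named after their values were seen. Alternatives were quantile normalization, centring, filters on dim genes, the mean of all probe sets, other probe sets, trend and robust options in eBayes, the test of the study's methods, an offset of 16 added to the intensities, a block on the replicate number, and leaving out each array. The test of the study's methods was a t-test with pooled variance. The study names t-tests, beside analysis of variance, for its experiments in general. For its array genes it gives a false discovery rate under 0.05 and a FC above 2, and its text names no test for them.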

Additional observations from a re-analysis of the deposited data

How the results depend on the processing

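Over the alternatives, the number of members that were higher in AGR cells lay between 8 and 13, except that it was 7 without NME replicate 3, and leaving out each array in turn gave 7 to 12. Of the members that were lower, 3 remained in number with the arrays centred on their medians, 3 with only genes above the median of all probe sets, 3 with the replicate block, and 3 to 5 without each array in turn. The number with a FC above 2 was 4 or 5 throughout. Of the 17 members called, between 10 and 16 kept their call without 1 array, 13 with the methods' t-test after Benjamini-Hochberg adjustment (which called 9 higher and 4 lower), and all 17 with quantile normalization. The 5 members with a mean below the median were not tested under the stricter filter. Among the matrix substrates, 1 gene was lower with genes above the 25th percentile, with genes above the median, with trend and robust settings and with the replicate block, 2 at an unadjusted p under 0.05 of the methods' t-test, and 0 to 1 without each array in turn. Each alternative was fitted over all its genes, and only genes taken by the naming rule were followed one by one. Among these, Timp3 turned direction. Its log2 FCs ran from -0.0738 without AGR replicate 2 to 0.0248 without AGR replicate 1 (-0.03 with all arrays), and none passed.

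The cell lines share replicate numbers, and deviations from the group means correlated between same-numbered arrays at -0.126, 0.327 and 0.259. NME replicates 2 and 3 each correlated best with the AGR array of the same number. NME replicate 1 correlated best with AGR replicate 3 (0.358). Whether same-numbered arrays were handled together was not tested. With the replicate block 12 members were higher and 3 lower. Signal near background limits the dim members, 50 of which were under the median of all probe sets for both cell lines.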
